A study of Homo sapiens with 24 samples.

Results

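The genes of cholesterol and fatty acid synthesis were examined in the human lung adenocarcinoma lines A549 and H1975. The 34 genes were taken by name from the gene names of the scanner files, with earlier results of these data known. Each gene was represented by the brightest of its probes. They make up 34 of the 25992 gene names on the array and 34 of the 23827 probes tested. The sterol arm holds 18 enzymes, the fatty acid arm 11 genes of fatty acid and glycerolipid synthesis, and the remaining 5 genes regulate the pathway or carry sterol. Cells of each line were kept for 6 h or 24 h in 0.75 mg/ml Pirfenidone, an antifibrotic drug, or in PBS, its solvent, at matched volume. The design has 8 groups of line, treatment and time with 3 samples in each, and every sample was put on its own one-color Agilent array. No other agent, transgene or knockout is named in the labels, and each line stands for a single tumor. Nothing in the labels says that the 3 samples of a group came from separate cultures, so the p-values measure the spread between these samples, which may be technical.

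Cells build cholesterol from acetyl-CoA through mevalonate, the isoprenoid pyrophosphates, squalene and lanosterol, and build fatty acids from the same acetyl-CoA through malonyl-CoA. When membrane sterol is low, SCAP escorts the SREBP factors from the endoplasmic reticulum to the Golgi, where they are cut and released to switch on most genes of both routes, and INSIG1 holds them back when sterol is plentiful. SREBF2 encodes the factor with more weight on sterol genes, and SREBF1 encodes the factor with more weight on fatty acid genes. Tumor cells often lean on this synthesis for membranes.

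Upstream sequence from RefSeq (GRCh38.p14), 250 bases before each annotated start, was matched to 30 of the 34 genes. ACAT2, FDFT1, SQLE and FASN had no entry. CCAAT, the core of the site bound by NF-Y, a common partner of the SREBP factors, was searched on both strands. It lay in a window of 20 of the 30 genes, against 37% of all 27305 genes and 32.0% of all 35116 windows. In the sterol arm 13 of 15 genes held it and in the fatty acid arm 4 of 10. The other letters searched were CACNCCAC, a relaxed form of the sterol regulatory element, found in 6 of 30 genes against 5.89% of all genes (IDI1, SC5DL, INSIG1, SREBF2, ACACA and SCD), and CACGTG, the E-box, found in 3 of 30 against 7.73% (SC5DL, INSIG1 and SCAP). CCAAT and CACNCCAC cannot share more than a few end letters, and the E-box reads the same on both strands. A match is a stretch of letters and not a measured site.

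The last 200 bases before the start are shown for 4 sterol genes that were lower together in H1975 at 24 h when arrays were compared within runs, as described further on, and for TM7SF2, which moved the other way. They were picked among genes with a single window. Capitals mark CCAAT or, where it lies on the opposite strand, ATTGG. The MVK stretch is at chr12:109573594-109573793 on the plus strand, MVD at chr16:88663092-88663291 on the minus strand, FDPS at chr1:155308666-155308865 on the plus strand, EBP at chrX:48521608-48521807 on the plus strand and TM7SF2 at chr11:65111672-65111871 on the plus strand.
MVK: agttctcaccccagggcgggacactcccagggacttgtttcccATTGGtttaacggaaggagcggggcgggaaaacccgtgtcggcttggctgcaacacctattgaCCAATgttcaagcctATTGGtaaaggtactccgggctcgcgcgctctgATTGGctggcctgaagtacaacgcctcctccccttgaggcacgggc
MVD: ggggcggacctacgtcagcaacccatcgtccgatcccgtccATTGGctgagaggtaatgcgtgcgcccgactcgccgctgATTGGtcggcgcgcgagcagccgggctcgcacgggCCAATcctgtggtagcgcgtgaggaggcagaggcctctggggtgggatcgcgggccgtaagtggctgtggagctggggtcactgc
FDPS: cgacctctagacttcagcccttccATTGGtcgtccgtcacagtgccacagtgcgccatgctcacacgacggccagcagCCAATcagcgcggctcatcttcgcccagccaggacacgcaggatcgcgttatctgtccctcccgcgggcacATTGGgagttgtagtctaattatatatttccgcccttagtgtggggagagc
EBP: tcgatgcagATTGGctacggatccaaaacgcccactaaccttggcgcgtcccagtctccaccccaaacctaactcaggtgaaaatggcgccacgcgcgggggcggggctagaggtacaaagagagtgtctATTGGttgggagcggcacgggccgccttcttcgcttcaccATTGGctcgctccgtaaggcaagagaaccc
TM7SF2: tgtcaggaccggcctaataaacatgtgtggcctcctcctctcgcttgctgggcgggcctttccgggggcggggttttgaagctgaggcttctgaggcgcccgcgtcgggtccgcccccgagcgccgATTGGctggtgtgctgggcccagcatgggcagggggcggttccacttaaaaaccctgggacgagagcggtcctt
The stretch of MVK holds 4 matches, those of MVD, FDPS and EBP 3 each, and that of TM7SF2 1. SC4MOL, higher in all 3 pairs, has 4 matches in the same 200 bases. Of the other sterol genes with a single window that were lower in all 3, NSDHL has 4 matches, HSD17B7 1 and PMVK 0. Whether the number of matches goes with the direction was not tested. LPIN1 has 3 annotated starts and ACSS2 has 2, so no single stretch is shown for these.

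Values are given as log2 signal, the log2 of an array's processed spot signal minus the 75th percentile of that array, so that 0 is the level of a fairly bright probe and 1 unit is a 2-fold step. Levels of different genes are not compared, since probes differ in brightness. All 34 genes were well above background on each of the 24 arrays, as were between 62.7% and 69.5% of all probes. The 6 epithelial markers EPCAM, CDH1, KRT7, KRT8, KRT18 and KRT19 were well above background on all 24 arrays. NKX2-1, the lung lineage factor, was so on 12 of 12 H1975 arrays and on 0 of 12 A549 arrays. Of the other lung markers NAPSA and SFTPC were above background on all 24 arrays and SFTPB on 1 of 12 A549 and 9 of 12 H1975 arrays. Of 5 fibroblast markers, COL3A1 and DCN were above background on 0 arrays, COL1A1 on all 24, and COL1A2 and PDGFRB on 12 of 12 H1975 and 0 of 12 A549 arrays. Of 3 endothelial markers PECAM1 and VWF showed the same split and CDH5 was above background on all 24. Of 4 leukocyte markers CD14 and CD68 were above background on all 24 arrays, PTPRC on 12 A549 and 11 H1975 arrays and CD3E on 1 H1975 array. COL3A1, DCN and CD3E were too dim to be tested. None of the other markers passed the test in any of the 4 Pirfenidone comparisons, and the part of the markers in the difference between lines was not tested.

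Arrays carried one of 4 dates in their scanner file names, called runs here. Each line and time had 1 PBS and 1 Pirfenidone array in each of 3 runs, so each comparison was also made within runs. Across the 23827 tested probes, the Pirfenidone minus PBS differences of separate runs correlated with Pearson's r between 0.29 and 0.64 in 3 of the 4 line and time combinations. In A549 at 24 h the pair of run 1 correlated at -0.38 and -0.55 with the other 2 pairs, which correlated at 0.39 with each other. These points share scaling and position on the slide, and the numbers are given as a description. Pirfenidone arrays always lay at position 1 (6 h) or 3 (24 h) of a slide. PBS arrays lay at position 2 (6 h) or 4 (24 h), and each slide held a single line. A difference of drug or time thus cannot be told apart from position, nor a difference of lines from slide. In H1975 at 24 h the PBS array of run 3 lay on another slide than its Pirfenidone array, so that pair differed in slide too. In the A549 pair of run 1 at 24 h the drug difference of many genes ran opposite to the other pairs. Whether the PBS and Pirfenidone labels of these 2 arrays are exchanged was not tested, and the arrays were kept as labelled. An exchange would turn the sign of that pair in each A549 value at 24 h and in each difference between lines or times that uses it, so the drug effects of the genes named for A549 at 24 h are also given without the pair.

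A gene passed the test where its p from limma, adjusted by Benjamini-Hochberg over all 23827 probes, was at most 0.05, and it was called where its log2 fold change was also at least 1 in size. None of the 34 genes was called in any of the 4 Pirfenidone comparisons. Of all probes, 0.176% were called for A549 at 6 h and 0.0126% at 24 h, while 0.491% were called for H1975 at 6 h and 1.89% at 24 h. By the adjusted p alone LPIN1 rose in A549 at 6 h, as the only one of the 34, where 0.34% of all probes passed. ACSS2 alone rose in H1975 at 24 h, where 6.26% of all probes passed. None passed for A549 at 24 h, with or without the pair of run 1, nor for H1975 at 6 h, where 0.0126% and 1.41% of all probes did. In A549, 2 of the 34 genes had an unadjusted p under 0.05 at 6 h, against 6.01% of all probes, and 0 at 24 h, against 0.953%. Without the pair of run 1 the count at 24 h was 4 (ACSS2, LPIN1, SREBF2 and SCAP), against 8.49%. In H1975 1 of 34 had such a p at 6 h, against 11% of all probes, and 9 of 34 at 24 h, against 22.0%.

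**Figure D1:**
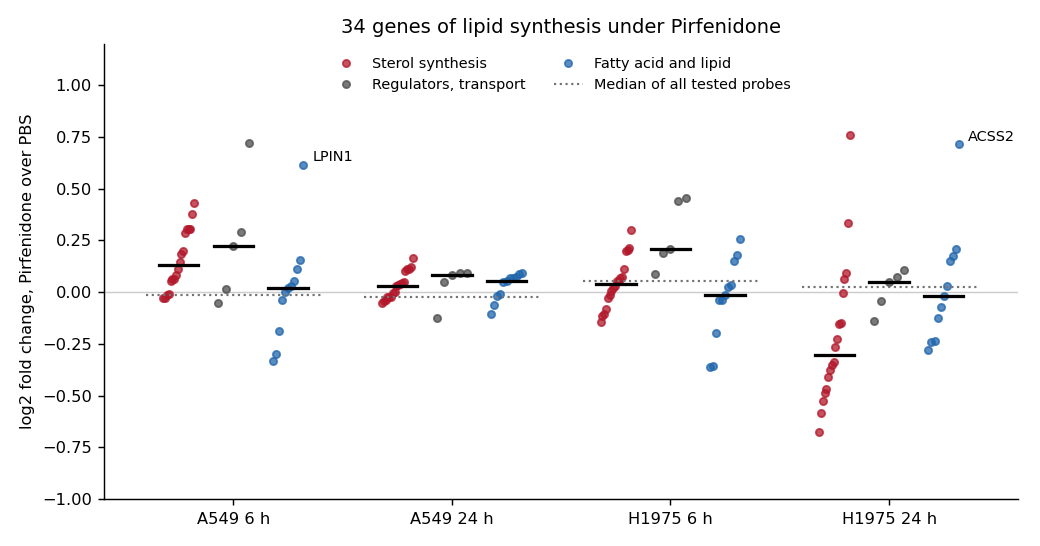
Each point is 1 gene, placed by its log2 fold change of Pirfenidone over PBS (vertical axis) in the 4 comparisons (horizontal axis), colored by gene group. Black bars are the group medians and dotted lines the median of all tested probes. The sterol median of H1975 at 24 h lies at -0.30, below the other sterol medians of 0.13, 0.03 and 0.04. The named points are LPIN1 and ACSS2, the genes that passed the adjusted p.

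LPIN1 encodes lipin 1, the phosphatidate phosphatase that makes diacylglycerol on the way to triglyceride. Its brightest probe lies at chr2:11967107-11967166 (hg19). In A549 at 6 h the log2 signal on the PBS arrays was 0.01, 0.01 and -0.06, and on the Pirfenidone arrays 0.51, 0.53 and 0.78. Each Pirfenidone array exceeded each PBS array. LPIN1 rose by 0.62 ± 0.12 on the log2 scale (SE, n = 3 against 3), or 1.53-fold, with an adjusted p of 0.0206 in limma. The adjusted p of LPIN1 was above 0.05 in 5 of the 6 fits that left out 1 array (0.0598 to 0.185, with a log2 fold change of 0.53 to 0.65), and below it without Pirfenidone replicate 1 (0.0323). It was also above 0.05 with normexp background correction (0.141), with the 6 arrays fitted alone (0.192) and with the mean of its 3 probes (0.413). In such RNA from whole cultures, fewer cells of a type and less RNA per cell cannot be told apart. In A549 at 24 h LPIN1 was 0.32, 0.14 and 0.64 under PBS and 0.48, 0.53 and 0.37 under Pirfenidone, and the groups overlapped. The log2 fold change was 0.09, and 0.28 without the pair of run 1, neither of which passed. In H1975 it was 0.65, 0.54 and 0.56 under PBS at 6 h and 0.63, 0.89 and 0.77 under Pirfenidone. At 24 h the H1975 values were 1.25, 1.10 and 1.21 under PBS and 1.39, 1.38 and 1.25 under Pirfenidone. LPIN1 was thus highest in H1975 at 24 h with or without the drug. The drug difference at 6 h was smaller in H1975 than in A549 (difference -0.43 ± 0.16, log2), but this did not pass the test (unadjusted p = 0.0154 in limma). Its 2 dimmer probes gave log2 fold changes of 0.37 and 0.34 in A549 at 6 h and did not pass.

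ACSS2 encodes the cytosolic acetyl-CoA synthetase, which makes acetyl-CoA from acetate. Its probe lies at chr20:33515343-33515401 (hg19). In H1975 at 24 h the log2 signal was 0.21, 0.17 and -0.12 under PBS and 0.90, 0.73 and 0.78 under Pirfenidone. The 3 Pirfenidone arrays were the highest of all 24 arrays. The log2 fold change was 0.72 ± 0.15 (SE, n = 3 against 3), or 1.64-fold, with an adjusted p of 0.0122 in limma. Without the pair of run 1 (replicate 3) the log2 fold change of ACSS2 was 0.62 with an adjusted p of 0.192, and without only the PBS or only the Pirfenidone array of that pair the adjusted p was 0.0574 and 0.0585. It was 0.0685 with normexp background correction and 0.0575 with the 6 arrays fitted alone. In H1975 at 6 h ACSS2 was -0.43, -0.10 and -0.24 under PBS and 0.19, -0.07 and -0.12 under Pirfenidone, and the groups overlapped. In A549 the level was lower. There it was -1.24, -1.15 and -1.22 under PBS and -1.13, -1.01 and -1.01 under Pirfenidone at 6 h. At 24 h it was -1.13, -1.04 and -0.52 under PBS and -0.88, -0.58 and -1.05 under Pirfenidone. The pair of run 1 differed by -0.53 and the other 2 by 0.24 and 0.45. Without that pair and with the run as a block, ACSS2 was higher under Pirfenidone by 0.35 on the log2 scale in A549 at 24 h and passed (adjusted p = 0.0450 in limma), as did 4.44% of all probes. The drug difference at 24 h was larger in H1975 than in A549 by 0.66 ± 0.22, which did not pass (adjusted p = 0.201 in limma), and by 0.37 ± 0.19 without that pair.

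**Figure D2:**
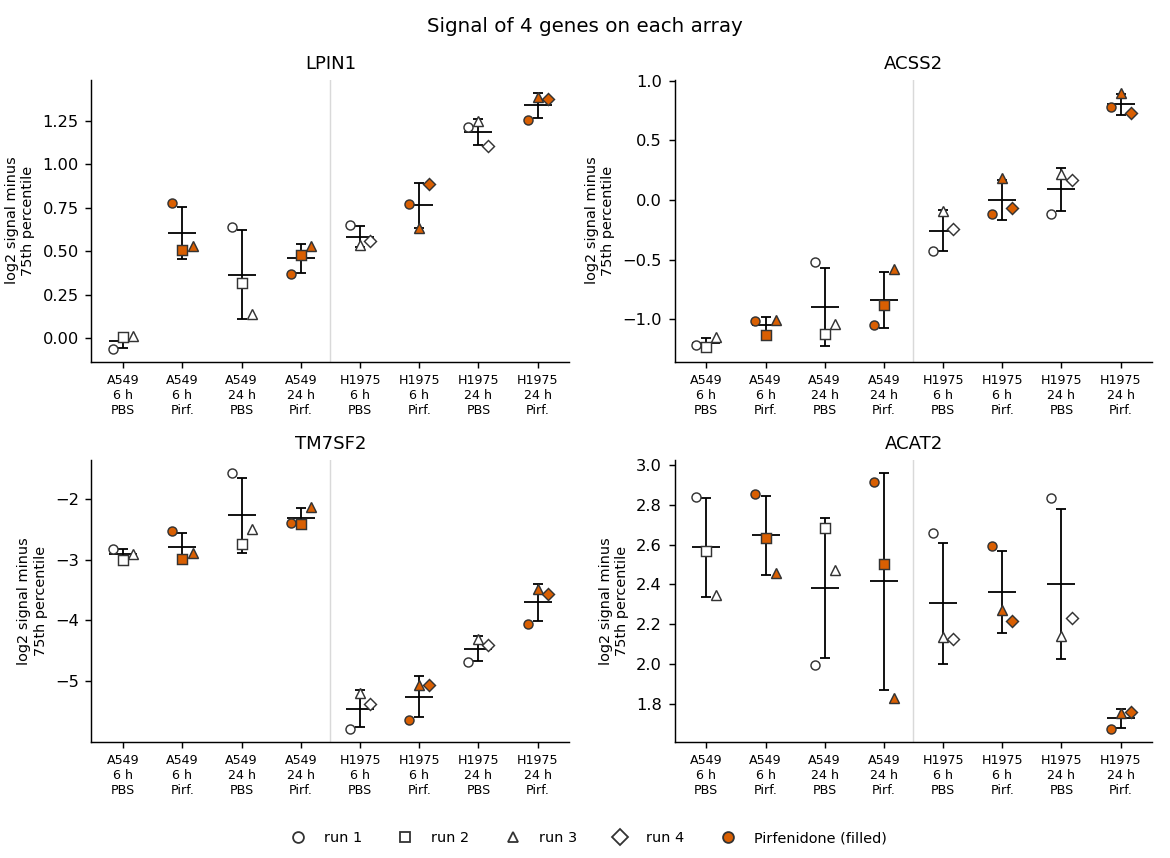
The scaled log2 signal of LPIN1, ACSS2, TM7SF2 and ACAT2 on each of the 24 arrays, by line, time and treatment. Symbols give the run, open for PBS and filled for Pirfenidone, and lines give the mean and SD of 3 arrays. ACSS2 was highest and ACAT2 lowest in H1975 under Pirfenidone at 24 h, and in A549 at 24 h the circles (run 1) run against the other symbols.

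The sterol arm had the largest median difference of the 3 groups in H1975 at 24 h, while in the other 3 comparisons the regulators did. In H1975 at 24 h, 14 of its 18 genes had a log2 fold change below 0, and the median was -0.30, while the median over all tested probes was 0.02 and 47.1% of them were below 0. The A549 medians were 0.13 at 6 h and 0.03 at 24 h (0.02 without the pair of run 1), and the H1975 median at 6 h was 0.04. None of the 18 genes passed the adjusted p in these 4 comparisons, and 8 of them had an unadjusted p under 0.05 in H1975 at 24 h, where 22.0% of all probes did. In the 3 runs of H1975 at 24 h the sterol median was -0.60, -0.13 and -0.19, with 16, 12 and 13 of 18 genes lower. A total of 12 sterol genes were lower in all 3 pairs, where 30.6% of all tested probes were. The pair of run 1 carried most of the size. Without it the median was -0.15, and without its PBS array alone it was -0.12.

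With the run as a block, 10 sterol genes were lower under Pirfenidone in H1975 at 24 h and passed the adjusted p, TM7SF2 was higher and passed, and ACSS2 passed as before. In the same fit 21.8% of all probes passed, and 10.1% of all probes passed as lower. The 10 genes were ACAT2 (log2 fold change -0.67), EBP (-0.58), MVD (-0.53), MVK (-0.49), HSD17B7 (-0.47), FDPS (-0.41), HMGCS1 (-0.38), DHCR7 (-0.35), NSDHL (-0.34) and IDI1 (-0.23). Their adjusted p-values lay between 0.00325 for HSD17B7 and 0.0420 for IDI1. With the slide as a random block 9 of the 34 genes passed, against 17.3% of all probes. With the run as a block but without the pair of run 1, none of the 34 passed, while 4.02% of all probes did, and 6 of the 34 had an unadjusted p under 0.05, against 22.6% of all probes.

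**Figure D3:**
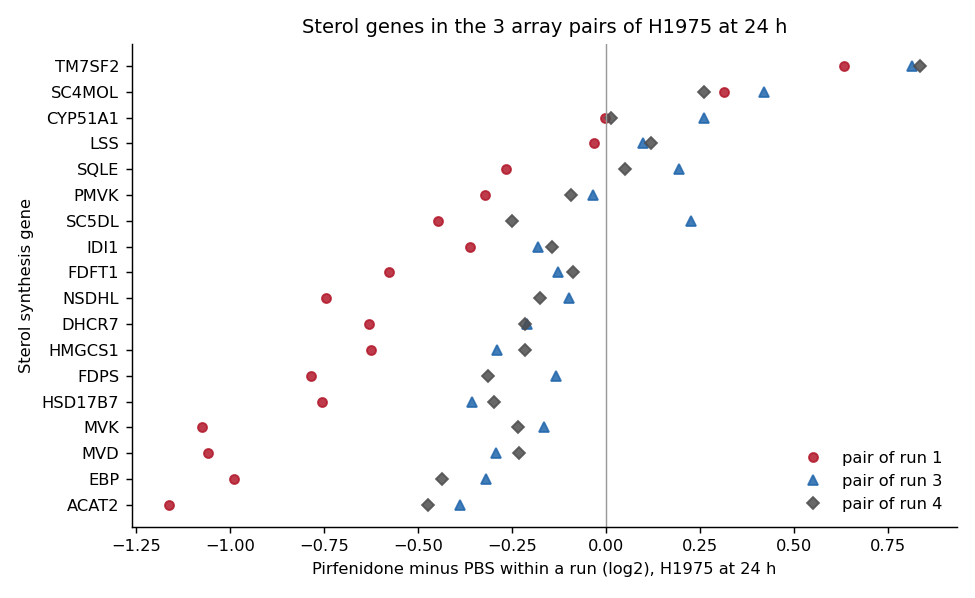
Each row is a sterol gene and each symbol the difference of Pirfenidone minus PBS (log2, horizontal axis) within 1 run of H1975 at 24 h. The pair of run 1 lies farthest to the left for most genes, ACAT2 and EBP are lower in all 3 pairs, and TM7SF2 and SC4MOL are higher in all 3.

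The first steps lead from acetyl-CoA to the isoprenoids. ACAT2, which joins acetyl-CoA units at the head of the route, had the largest decrease of the arm in size. In H1975 at 24 h its log2 signal was 2.14, 2.23 and 2.84 under PBS and 1.75, 1.76 and 1.67 under Pirfenidone. The groups did not overlap, and the Pirfenidone arrays were the lowest of the 24. The log2 fold change was -0.67 ± 0.25 (SE) with an adjusted p of 0.114 in limma. ACAT2 in H1975 at 6 h was 2.66, 2.14 and 2.12 under PBS and 2.27, 2.21 and 2.59 under Pirfenidone. A549 had 2.57, 2.35 and 2.84 under PBS and 2.63, 2.46 and 2.85 under Pirfenidone at 6 h, so that neither line showed a gap at this time. In A549 at 24 h ACAT2 was 2.68, 2.47 and 1.99 under PBS and 2.50, 1.83 and 2.91 under Pirfenidone, and the differences were -0.18 and -0.64 in 2 runs and 0.92 in run 1. As log2 fold change this was 0.03, and -0.41 without the pair of run 1.

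Of the other early genes, HMGCS1 makes HMG-CoA, MVK and PMVK phosphorylate mevalonate, MVD forms isopentenyl pyrophosphate, IDI1 converts it to its isomer and FDPS makes farnesyl pyrophosphate. Their log2 fold changes in H1975 at 24 h lay between -0.53 (MVD) and -0.15 (PMVK), and all 7 genes of this stretch were lower in each of the 3 pairs. In H1975 at 6 h they lay between -0.08 (HMGCS1) and 0.21 (MVK). In A549 at 6 h MVK and MVD had 0.30 each and IDI1 0.28, with adjusted p of 0.975 or more. The difference of the drug effect between 24 h and 6 h in H1975 was -0.70 for MVK and -0.73 for MVD, with unadjusted p of 0.0181 and 0.0448 and adjusted p of 0.701 and 0.838 in limma.

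The middle steps lead through squalene to lanosterol and its demethylation. FDFT1 makes squalene, SQLE oxidizes it and LSS closes it to lanosterol. FDFT1 in H1975 at 24 h had a log2 fold change of -0.26, SQLE of -0.01 and LSS of 0.06. CYP51A1, the lanosterol demethylase, had 0.09 and SC4MOL, the C4 methyl oxidase named MSMO1 in the files, 0.33. None of these passed, with or without the run as a block.

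EBP, the sterol isomerase of the late route, had 4.41, 4.65 and 5.15 under PBS and 4.09, 4.22 and 4.16 under Pirfenidone in H1975 at 24 h. Each treated array was below each PBS array. The difference was -0.58 ± 0.23 with an adjusted p of 0.148 in limma. At 6 h EBP in H1975 was 5.23, 4.67 and 4.71 under PBS and 4.62, 4.64 and 5.03 under Pirfenidone. A549 had 4.55, 4.43 and 4.95 under PBS and 4.55, 4.44 and 4.92 under Pirfenidone at 6 h, and at 24 h 4.57, 4.41 and 4.21 under PBS and 4.49, 3.94 and 4.90 under Pirfenidone. The groups overlapped in these 3 comparisons. The A549 log2 fold change at 24 h was 0.04, and -0.28 without the pair of run 1.

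TM7SF2, a sterol reductase that removes the C14 double bond, ran against the arm. In H1975 at 24 h it was -4.30, -4.40 and -4.69 under PBS and -3.49, -3.56 and -4.06 under Pirfenidone, and the groups did not overlap. The log2 fold change was 0.76 ± 0.25, or 1.70-fold, with an adjusted p of 0.0778 in limma and of 0.00772 with the run as a block. In H1975 at 6 h it was -5.79, -5.20 and -5.37 under PBS and -5.06, -5.06 and -5.64 under Pirfenidone. In A549 it was higher, with -3.01, -2.91 and -2.82 under PBS and -2.98, -2.89 and -2.52 under Pirfenidone at 6 h. At 24 h the A549 values were -2.75, -2.49 and -1.57 under PBS and -2.42, -2.12 and -2.39 under Pirfenidone. The pair of run 1 differed by -0.82 and the other 2 by 0.33 and 0.37. Over the 3 pairs the log2 fold change was -0.04, and 0.35 without the pair of run 1.

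LBR, the lamin B receptor, carries out the same reduction and is no member of the 34. It was the only one of 33 further pathway genes to pass the adjusted p in a Pirfenidone comparison. This was in H1975 at 24 h, where 6.26% of all probes passed. Its log2 signal there was 2.63, 2.48 and 2.75 under PBS and 2.09, 2.15 and 2.06 under Pirfenidone, without overlap. LBR fell by 0.52 ± 0.11 on the log2 scale (adjusted p = 0.0129 in limma), while the level of TM7SF2 under the drug was above that under PBS. None of the 33 genes was called with the fold limit in the 4 comparisons, and their median log2 fold change lay between -0.01 and 0.08.

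Of the other late genes, NSDHL and HSD17B7 act with SC4MOL in removing the C4 methyl groups, and SC5DL (SC5D in the files) and DHCR7 carry out the last steps. At 24 h in H1975 NSDHL had -0.34, HSD17B7 -0.47, SC5DL -0.16 and DHCR7 -0.35. HSD17B7 has a near-identical pseudogene copy, so its signal is uncertain. Its brightest probe was higher under Pirfenidone in all 3 A549 pairs at 24 h, where 3.10% of all tested probes were. The difference was 0.20 in the pair of run 1 and 0.01 and 0.15 in the other 2. In H1975 it was lower in all 3 pairs, where 30.6% of all tested probes were. The difference between the lines, -0.59, did not pass (adjusted p = 0.353 in limma) and passed with the run as a block (adjusted p = 0.0196), as did 4.81% of all probes. With the run as a block it no longer passed without the A549 pair of run 1 (adjusted p = 0.0513) or without the H1975 pair of run 1 (adjusted p = 0.0712). Of its 4 probes, 3 gave log2 fold changes between -0.57 and -0.47 in H1975 at 24 h, and the dimmest gave -0.12.

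**Figure D4:**
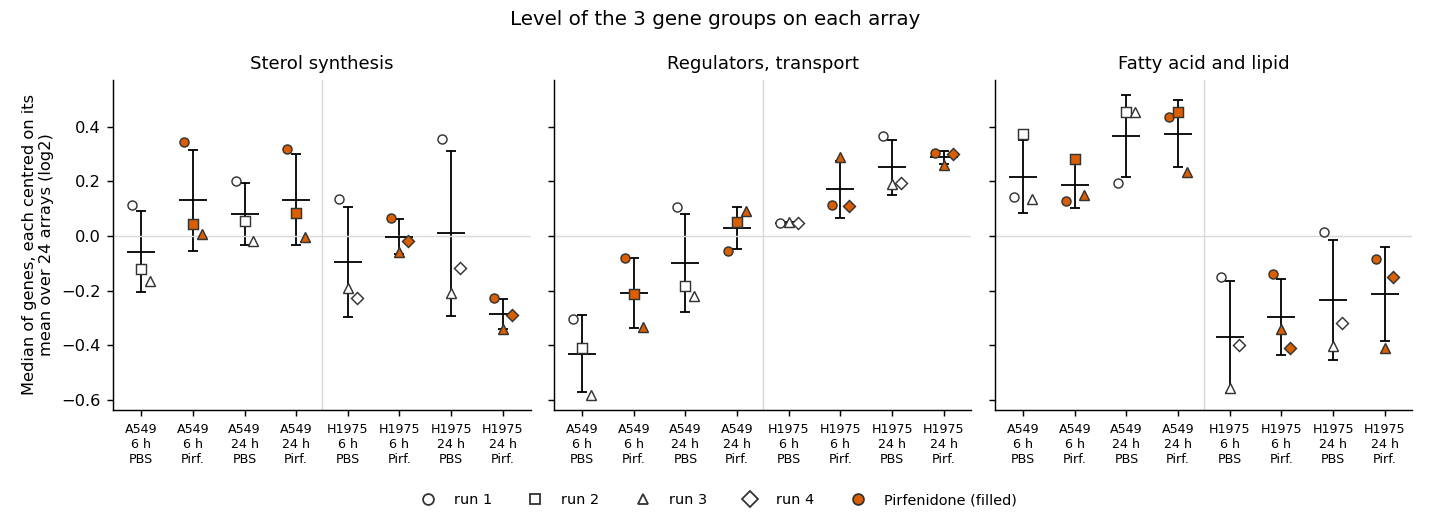
For each of the 3 gene groups, the points give the median over its genes on 1 array, after each gene was centered on its mean over the 24 arrays (log2, vertical axis), by line, time and treatment. Open symbols are PBS, filled ones Pirfenidone, shapes are runs, and lines are the mean and SD of 3 arrays. The sterol group lies at -0.29 in H1975 under Pirfenidone at 24 h and at 0.01 under PBS, where the array of run 1 is at 0.35, and the fatty acid group is lower in H1975 than in A549 throughout.

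The sterol arm had its smallest spread between runs in A549 at 6 h, where the medians of the 3 pairs were 0.14, 0.15 and 0.11. A total of 13 of the 18 genes were higher in all 3 pairs, where 23.2% of all tested probes were. None of the 18 passed the adjusted p. SC4MOL had the largest difference, 0.43 ± 0.26 (unadjusted p = 0.107 in limma). With the run as a block HSD17B7 (0.38), LPIN1 and STARD4 passed in A549 at 6 h, as did 1.65% of all probes.

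None of the 5 regulators passed the adjusted p in the 4 Pirfenidone comparisons. STARD4 carries cholesterol between membranes. In A549 at 6 h its log2 signal was -3.18, -3.20 and -2.99 under PBS and -2.35, -2.70 and -2.16 under Pirfenidone, without overlap. The log2 fold change was 0.72 ± 0.20 (unadjusted p = 0.0019, adjusted p = 0.206 in limma), and with the run as a block the adjusted p was 0.00645. At 24 h it was -2.80, -2.79 and -2.64 under PBS and -3.01, -3.22 and -2.38 under Pirfenidone, which overlapped, with a log2 fold change of -0.13, and -0.32 without the pair of run 1. The drug effect in A549 at 24 h minus that at 6 h was -0.85 ± 0.28, which did not pass (adjusted p = 0.936 in limma). Without the 24 h pair of run 1 that difference was -1.04 (adjusted p = 0.574), and with the run as a block as well it was called, as one of 0.214% of all probes that passed. In H1975 the log2 fold change of STARD4 was 0.19 at 6 h and 0.05 at 24 h.

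SREBF1 in H1975 at 6 h was 1.99, 1.87 and 1.86 under PBS and 2.57, 2.30 and 2.22 under Pirfenidone, without overlap. Its difference was 0.46 ± 0.15 (unadjusted p = 0.00681, adjusted p = 0.180 in limma). SREBF1 had -0.14 in H1975 at 24 h and 0.01 and 0.05 in A549 at 6 h and 24 h (-0.03 at 24 h without the pair of run 1). INSIG1 had 0.44 ± 0.34 and -0.05 in H1975 at 6 h and 24 h and 0.29 ± 0.34 and 0.08 in A549 (0.17 at 24 h without that pair), none of which passed. SREBF2 had 0.22 and 0.21 at 6 h in A549 and H1975 and 0.09 and 0.11 at 24 h, and 0.29 in A549 at 24 h without that pair. SCAP lay between -0.05 and 0.09 in the 4 comparisons, and had 0.25 in A549 at 24 h without that pair. All 5 regulators were above 0 in H1975 at 6 h, with a median of 0.21 against 0.05 for all probes.

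The fatty acid arm had medians of 0.02 and 0.05 in A549 and -0.02 and -0.02 in H1975 at 6 h and 24 h, and of 0.06 in A549 at 24 h without the pair of run 1. Apart from LPIN1 and ACSS2 no gene passed. ELOVL6, which lengthens palmitate, and GPAM, which starts glycerolipid synthesis, had the next largest differences in H1975 at 24 h. ELOVL6 in H1975 was 0.47, 0.93 and 0.81 under PBS and 0.60, 0.43 and 0.10 under Pirfenidone at 6 h. At 24 h it was 0.999, 0.85 and 0.25 under PBS and 0.66, 0.61 and -0.01 under Pirfenidone. The groups overlapped at both times, with log2 fold changes of -0.36 ± 0.21 and -0.28 ± 0.21. In A549 ELOVL6 was -1.21, -1.06 and -1.25 under PBS and -1.43, -1.47 and -1.52 under Pirfenidone at 6 h. These groups did not overlap, and the difference of -0.30 did not pass. At 24 h the A549 values were -1.08, -0.95 and -1.33 under PBS and -1.20, -1.33 and -0.86 under Pirfenidone, with a log2 fold change of -0.01, and -0.25 without the pair of run 1.

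GPAM in H1975 was 0.21, 0.29 and 0.33 under PBS and -0.50, 0.26 and 0.00 under Pirfenidone at 6 h. At 24 h it was 0.08, 0.06 and -0.13 under PBS and -0.22, -0.21 and -0.29 under Pirfenidone. The 24 h groups did not overlap, with a log2 fold change of -0.24 ± 0.18 that did not pass. In A549 GPAM was -0.51, -0.57 and -0.68 under PBS and -0.75, -0.82 and -1.19 under Pirfenidone at 6 h, without overlap (-0.33 ± 0.18, adjusted p = 0.927 in limma). At 24 h the A549 values were -0.70, -0.65 and -1.28 under PBS and -0.96, -1.08 and -0.79 under Pirfenidone, with a log2 fold change of -0.06, and -0.34 without the pair of run 1. In all 3 pairs of H1975 at either time, and in those of A549 at 6 h, the brightest probes of both genes were lower under the drug. The dimmer probe of GPAM gave log2 fold changes of -0.002 and -0.33 in A549 at 6 h and 24 h. In H1975 it gave 0.10 and -0.20, and none of these passed.

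The remaining genes of the arm make the building blocks or desaturate and release them. ACLY makes cytosolic acetyl-CoA from citrate, ACACA makes malonyl-CoA, FASN builds palmitate, SCD, FADS1 and FADS2 are desaturases and ME1 supplies NADPH. At 24 h in H1975 they lay between -0.23 (FASN) and 0.21 (ME1), and in H1975 at 6 h between -0.20 (ME1) and 0.15 (ACACA). In A549 they lay between -0.19 (FASN) and 0.11 (FADS1) at 6 h and between -0.11 (ACACA) and 0.09 (FADS2) at 24 h, or between -0.13 (ACACA) and 0.24 (FADS2) without the pair of run 1.

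The drug effect was also compared between lines and between times. No gene of the 34 was called or passed the adjusted p in these 4 comparisons. Of all probes, 0.0336% were called and 0.0378% passed for the difference between lines at 6 h, and 0.193% and 0.239% at 24 h. For the difference between times 0.0294% were called and 0.0294% passed in A549, and 0.0042% were called and 0.00839% passed in H1975. Unadjusted p-values under 0.05 numbered 1 of 34 for lines at 6 h (LPIN1) and 4 at 24 h, against 2.63% and 12.2% of all probes. For times they numbered 2 in A549 (STARD4 and LPIN1) and 7 in H1975, against 3.04% and 5.86% of all probes. The 4 genes at 24 h were ACSS2 (0.66), TM7SF2 (0.80), HSD17B7 (-0.59) and FDPS (-0.46), given as the drug effect in H1975 minus that in A549. Without the A549 pair of run 1 they were 0.37, 0.41, -0.55 and -0.27, and none of the 34 genes had an unadjusted p under 0.05. A p-value that misses the threshold does not show that the lines respond alike.

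The lines themselves differed far more than the treatments. Under PBS 7 of 34 genes were called at 6 h and 7 at 24 h, against 32.4% and 32.9% of all probes. By the adjusted p alone 22 of 34 passed at each time, against 58.6% and 59.2% of all probes. At 6 h 11 genes were higher and 11 lower in H1975, against 30.7% and 27.9% of all probes, and at 24 h 10 were higher and 12 lower, against 32.0% and 27.2%. In the fatty acid arm the brightest probes of all 11 genes passed the adjusted p at both times, 4 higher and 7 lower in H1975. In the sterol arm 6 of 18 passed at 6 h and 7 at 24 h.

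**Figure D5:**
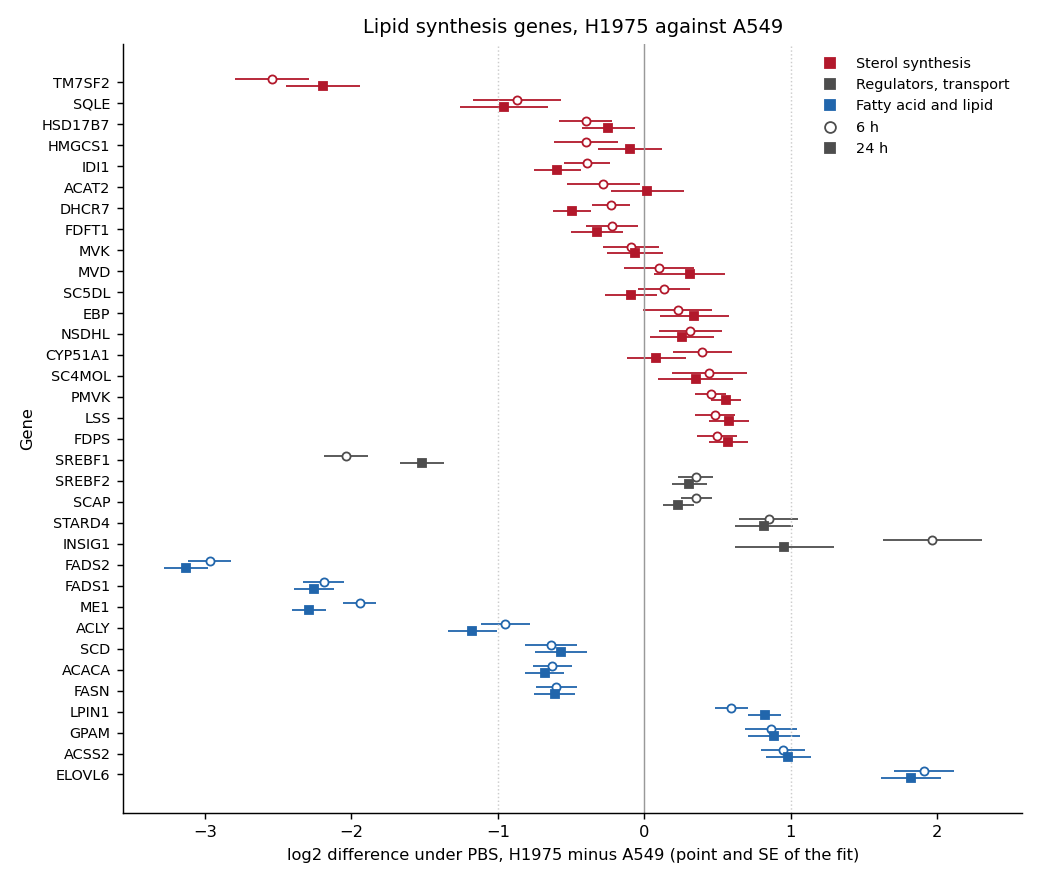
Each row is a gene and each point the log2 difference of H1975 minus A549 under PBS with the SE of the fit, open circles for 6 h and filled squares for 24 h, colored by gene group. Dotted lines mark a difference of 1. FADS2, FADS1, ME1, SREBF1 and TM7SF2 lie beyond -1 and ELOVL6 beyond 1 at both times.

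The desaturases and ME1 were lower in H1975. FADS2, which starts the synthesis of polyunsaturated fatty acids, had a log2 signal under PBS at 6 h of 3.80, 3.79 and 3.76 in A549 and of 0.61, 1.03 and 0.81 in H1975. The difference was -2.97 ± 0.15 at 6 h and -3.13 ± 0.15 at 24 h, or 7.83-fold and 8.76-fold lower in H1975 (adjusted p = 2.32e-12 and 1.02e-12 in limma). FADS1, its neighbor on the chromosome and in the route, was 3.41, 3.65 and 3.27 in A549 and 1.28, 1.27 and 1.22 in H1975 at 6 h. Its differences were -2.19 ± 0.14 at 6 h and -2.26 ± 0.14 at 24 h. ME1, the malic enzyme, was 0.30, 0.20 and 0.22 in A549 and -1.73, -1.73 and -1.67 in H1975 at 6 h, with differences of -1.95 ± 0.11 and -2.29 ± 0.11. In none of these did the lines overlap.

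SREBF1 was 4.14, 3.79 and 3.90 in A549 and 1.99, 1.87 and 1.86 in H1975 under PBS at 6 h. The difference was -2.04 ± 0.15 at 6 h and -1.52 ± 0.15 at 24 h. The dimmer of its 2 probes gave -0.09 and -0.02, so the probes of SREBF1 disagree on the lines. TM7SF2, with its values given above, was 5.83-fold lower in H1975 at 6 h (-2.54 ± 0.25) and 4.58-fold lower at 24 h (-2.20 ± 0.25). ACLY had differences of -0.95 ± 0.17 at 6 h and -1.17 ± 0.17 at 24 h. FASN, ACACA and SCD were lower in H1975, with differences between -0.68 and -0.57 at both times.

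ELOVL6 was higher in H1975, by 1.91 ± 0.21 at 6 h and 1.82 ± 0.21 at 24 h. INSIG1 was -0.71, -1.02 and -0.68 in A549 and 1.75, 0.78 and 0.94 in H1975 under PBS at 6 h, a difference of 1.97 ± 0.34. At 24 h it was -0.12, -0.52 and 0.26 in A549 and 0.26, 0.37 and 1.85 in H1975, a difference of 0.96 ± 0.34, and the highest A549 array and the lowest H1975 array were both at 0.26. STARD4 was higher in H1975 by 0.85 and 0.81, GPAM by 0.86 and 0.88, ACSS2 by 0.95 and 0.98 and LPIN1 by 0.59 and 0.82 at 6 h and 24 h. The dimmer probe of GPAM gave 0.59 at both times and did not pass. That of ELOVL6 gave 0.94 and 0.84 and passed. Of the 2 dimmer probes of LPIN1, 1 gave 0.63 and 0.70 and passed, and the other gave 0.55 and 0.36 and did not. SREBF2 was higher by 0.35 and 0.31, and SCAP by 0.36 at 6 h, while at 24 h it did not pass (0.23).

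In the sterol arm PMVK, FDPS and LSS were higher in H1975 by between 0.45 and 0.58, and SQLE (-0.87 and -0.96) and IDI1 (-0.39 and -0.59) were lower at 6 h and 24 h. DHCR7 passed at 24 h alone (-0.49). The medians of the sterol arm were 0.00 at 6 h and -0.02 at 24 h, against 0.06 and 0.08 for all probes, and those of the fatty acid arm -0.63 and -0.61. ACAT2, HMGCS1, MVK, MVD, FDFT1, CYP51A1, SC4MOL, NSDHL, HSD17B7, EBP and SC5DL did not pass at either time, with differences between -0.40 and 0.44.

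Of the 33 further pathway genes 11 were called between lines at 6 h and 10 at 24 h, against 32.4% and 32.9% of all probes. By the adjusted p 18 and 19 passed, against 58.6% and 59.2% of all probes. Among the 33 genes ACSL4, which activates arachidonic acid, was higher in H1975 by 2.49 and 2.19 at 6 h and 24 h. ACACB, the mitochondrial acetyl-CoA carboxylase, was lower (-2.89 and -2.62), as was ELOVL7, a fatty acid elongase (-3.25 and -3.47).

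Time in culture under PBS went with small differences, most of them upward. In A549 28 of the 34 genes were higher at 24 h than at 6 h, with a median log2 difference of 0.18, while the median over all probes was 0.02 and 45.7% of them were lower. Without the A549 24 h pair of run 1, 29 were higher, with a median of 0.13. All 5 regulators were higher in A549, with differences between 0.15 (SREBF1) and 0.68 (INSIG1). In H1975 23 of 34 were higher (median 0.12), against a median of 0.04 for all probes, of which 42.5% were lower, and 18 without the H1975 24 h pair of run 1 (median 0.05). No gene of the 34 was called in either line, where 0.109% of all probes were called in A549 and 0.315% in H1975. By the adjusted p alone none passed in A549, where 0.134% of all probes did and 5 of the 34 had an unadjusted p under 0.05, against 8.49% of all probes. In H1975 2 passed, against 0.663% of all probes. LPIN1 rose by 0.60 ± 0.12 (adjusted p = 0.0174 in limma) from 0.58 ± 0.06 to 1.19 ± 0.07 (mean ± SD, n = 3). SREBF1 rose by 0.67 ± 0.15 (adjusted p = 0.0452) from 1.91 ± 0.07 to 2.57 ± 0.27. Both adjusted p-values were above 0.05 with normexp (0.222 for LPIN1 and 0.198 for SREBF1), with the 6 arrays fitted alone (0.141 and 0.235) and with the mean over a gene's probes (0.179 and 0.131). In the 6 fits that left out 1 array, LPIN1 passed in 2, without PBS replicate 1 of 6 h (0.0392) or replicate 2 of 24 h (0.0461), and had 0.0640 to 0.0891 in the others. SREBF1 passed in 1 of these fits, without replicate 2 of 24 h (0.0401), and had 0.0730 to 0.205 in the others. The difference of TM7SF2 was 0.99 ± 0.25 (adjusted p = 0.0836). With the run as a block TM7SF2, LSS (0.37), MVD (0.45) and ACACA (0.37) passed beside LPIN1 and SREBF1 in H1975, as did 7.63% of all probes, and FADS2 (0.47) passed in A549, as did 1.57%.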

How the data were processed

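RNA of 24 samples (A549 and H1975, 0.75 mg/ml Pirfenidone or PBS, 6 h or 24 h, n = 3) was hybridized to one-color Agilent arrays (Cy3). Per the file headers, the spot intensity values were made with Agilent Feature Extraction, which had subtracted background, with hg19 annotation. The deposited series table holds log2 values that the authors scaled and centered on each probe's median, and it served only as an alternative. Its direction was settled by a correlation of 0.999 with the centered scanner values.

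The processed intensity was taken to log2, the 75th percentile of each array over non-control spots was subtracted, outlier spots were dropped and spots of a probe were averaged. The test took 23827 of 34127 probes, those with 1 or more groups whose 3 arrays were all well above background. limma 3.58.1 in R 4.3.3 fitted the 8 groups together (16 residual degrees of freedom), with Benjamini-Hochberg adjustment. A call needed an adjusted p of 0.05 or less and the 2-fold limit of the study's methods. The number of arrays limits the precision.

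The 34 genes, the lists of further pathway genes and markers, and the tests were chosen with earlier results of these data known. The genes named are all 34, with values by array for those that passed or had large differences. Of the further genes, LBR and the examples between lines were chosen after their values were seen, as were the genes whose upstream sequence is shown. Alternatives were other background correction, normalization, filters, adjustment, blocks, the methods' t-test and leaving out each array. Those without the run 1 pairs of A549 or H1975 at 24 h were added after seeing the data. The limma fit of the Pirfenidone comparisons was tested on simulated arrays with known changes and independent noise. These held no run or slide effect, so that test cannot speak to arrays that vary together by run or slide. Correlations of same-numbered samples were below 0.1 for some pairs (A549 at 24 h 0.39, 0.08 and -0.10, H1975 at 6 h -0.48, 0.43 and -0.68). The replicate numbers were not taken to pair samples. Only in H1975 at 6 h do they pair other arrays than the runs do, and the run pairs gave 0.82, 0.50 and 0.70 there. In A549 and in H1975 at 24 h both make the same pairs. The low A549 values at 24 h therefore hold for the run pairs too.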

Additional observations from a re-analysis of the deposited data

How the results depend on the processing

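LPIN1 in A549 at 6 h and ACSS2 in H1975 at 24 h, which passed the test, kept their sign under every alternative run. Signs were not compared in this way for LBR or for the differences between lines or times. Of 8 arm medians under the drug, 5 changed sign under 1 or more alternatives: the fatty acid medians of A549 and H1975 at 6 h and H1975 at 24 h, and the sterol medians of A549 at 24 h and H1975 at 6 h, with main values between -0.02 and 0.04. Of 28 values of single genes 12 did, none past the adjusted p with the changed sign. Among these 12, ACSS2 in A549 at 24 h passed with its main sign under 1 alternative. That was the fit with the run as a block and without the pair of run 1 (0.35, adjusted p = 0.0450 in limma). Of the alternative values of the summary results, 342 were counts equal or near to the main count, or medians within the spread between runs. A further 19 medians moved by more and 7 counts rose. Near is a loose limit, as the 7 to 10 genes called between lines at 6 h fall within it. Without the fold limit the number of the 34 genes that passed was 1 for A549 at 6 h, 1 for H1975 at 24 h, 2 for time in H1975, and 22 between lines at 6 h and 22 at 24 h. With the slide as a block 1 gene was called for time in H1975, and with the run as a block and without the A549 24 h pair of run 1, 1 gene (STARD4) was called for the drug effect between times in A549. The sterol median in A549 at 6 h was 0.16 with normexp and 0.10 with the mean of all probes. The fatty acid median in H1975 at 6 h was -0.0708 with normexp, -0.0426 with quantile normalization and -0.0523 in the authors' values. Leaving out 1 array gave sterol medians for A549 of 0.0627 to 0.228 (6 h) and -0.0389 to 0.0903 (24 h), for H1975 of -0.0692 to 0.147 (6 h) and -0.376 to -0.12 (24 h), fatty acid medians of -0.083 to 0.104 in H1975 at 6 h, and 7 to 10 and 7 to 9 genes called between lines at 6 h and 24 h. The causes were not tested.

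The replicate numbers share no source in the labels. With the replicate number as a block 0 of the 34 genes were called with the fold limit in the 4 Pirfenidone comparisons, and by the adjusted p 1 passed in A549 at 6 h (LPIN1) and 2 in H1975 at 24 h (ACSS2 and TM7SF2).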

Other observations

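Probes of the same gene did not always give the same size of difference. The dimmer probe of ELOVL6 gave log2 fold changes under Pirfenidone of -0.83 and -0.06 in A549 and -0.70 and -0.76 in H1975 at 6 h and 24 h, none of which passed the adjusted p. The dimmer probe of LSS was higher in H1975 than in A549 under PBS by 1.49 and 1.64 at 6 h and 24 h, against 0.48 and 0.58 for the brightest.

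In H1975 at 24 h under PBS, the array of run 1 stood above the other arrays for several sterol genes. SQLE was at 0.68, 0.79 and 1.96, NSDHL at 3.30, 3.42 and 4.33, MVD at -1.38, -1.37 and -0.25 and INSIG1 at 0.26, 0.37 and 1.85, with run 1 given last. Under Pirfenidone at 24 h SQLE was at 0.87, 0.84 and 1.70 and INSIG1 at 0.59, 0.66 and 1.10, again with run 1 last.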
